A study of Mus musculus with 20 samples.

Results

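Tmem176a and Tmem176b are neighbouring mouse genes, and the results below follow these 2 genes, of 49671 in the deposited table, through 20 RNA-seq libraries of cultured T cells. They were chosen by their measured values: their counts were higher in CD8 T cells at week 4 than at week 1, so those levels are given as a description, with no test. CD8 or CD4 T cells had been enriched from mouse spleen and inguinal lymph nodes, activated on plates coated with anti-CD3 and anti-CD28 with IL-2 at 1 ng/mL, and later grown with IL-7 at 10 ng/mL and IL-15 at 50 ng/mL. The 4 groups of 5 libraries each are CD8 week 4 (25 days of expansion), CD8 week 1 (4 days), CD4 week 3 (18 days) and CD4 week 1 (4 days). Every group received the same cytokines and was sorted for CD44+CD62L+ cells, the surface phenotype of central memory T cells, before RNA was isolated. Per the labels, cells were either polyclonal, from albino B6 mice (activated for 72 hours), or carried a transgenic receptor, from Marilyn-BLITC and MataHari-BLITC mice (24 hours), with nothing to say which of them a library holds. They give no age, animal or culture for a library, so each p-value rests on the spread between libraries alone, and that spread may be technical.

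Tmem176a and Tmem176b encode small proteins that cross the membrane several times, are related to the MS4A family, and act as cation channels of intracellular membranes, in particular of endosomes and lysosomes. In the mouse they are known from dendritic cells and macrophages and from lymphocytes with a type 17 programme. Tmem176b has been linked to antigen processing and to restraint of the NLRP3 inflammasome, the cytosolic complex that activates caspase-1.

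On GRCm38, Tmem176b (ENSMUSG00000029810) lies on the minus strand at chr6:48833818-48841496 and Tmem176a (ENSMUSG00000023367) on the plus strand at chr6:48840919-48847071. The gene spans point away from each other, share 578 bp at their 5' ends, and together cover 13254 bp. The GENCODE annotation lists 7 transcripts of Tmem176a, 5 of them protein-coding, and 12 of Tmem176b, 11 of them protein-coding. The promoter sequences are shown because both genes start from the same short stretch of DNA and their RNA moved together. RefSeq lists 2 start sites for Tmem176a and 3 for Tmem176b, and the windows shown are those of the 1 site of each gene that diverge at the shortest distance, 109 bp. Each window of 300 bases (RefSeq, GRCm38.p6) runs from 250 bases before the start site to 50 bases from it, 5' to 3' on the gene's own strand, and the windows overlap by 208 bp. Capitals mark matches, on either strand, to AGGAAGT (a core of ETS factor sites) or CTTTGAT (a core of TCF and LEF factor sites).
Tmem176a, plus strand, chr6:48841233-48841532: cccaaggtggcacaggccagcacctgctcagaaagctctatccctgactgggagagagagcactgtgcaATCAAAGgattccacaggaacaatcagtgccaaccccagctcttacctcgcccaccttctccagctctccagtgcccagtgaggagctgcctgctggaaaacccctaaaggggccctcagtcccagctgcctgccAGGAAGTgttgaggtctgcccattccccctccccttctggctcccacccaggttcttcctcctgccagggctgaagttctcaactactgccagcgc
Tmem176b, minus strand, chr6:48841325-48841624: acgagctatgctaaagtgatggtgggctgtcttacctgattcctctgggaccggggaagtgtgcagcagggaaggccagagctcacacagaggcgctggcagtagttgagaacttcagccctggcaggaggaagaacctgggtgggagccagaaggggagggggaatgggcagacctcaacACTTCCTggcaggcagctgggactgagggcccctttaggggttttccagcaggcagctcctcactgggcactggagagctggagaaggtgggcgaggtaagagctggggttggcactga

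The AGGAAGT match at chr6:48841437-48841443 lies in the overlap and is shared: it begins 46 bases upstream of the Tmem176a start and 69 bases upstream of the Tmem176b start. Of 32544 distinct mouse promoter windows of this length, 9.27% hold AGGAAGT on either strand. The CTTTGAT match stands only in the Tmem176a window, beginning 181 bases upstream of its start, and 3.73% of all windows hold one. CANNTG (E-box) had 2 matches in the Tmem176a window and 1 in the Tmem176b window, against 72.3% of all windows with at least 1, and no match overlaps another. The cores TGANTCA of AP-1 sites, TTCNNNGAA of STAT sites and TGTGGT of RUNX sites were searched as well and are not among the letters of either window. Neither are TGACGTCA of cyclic AMP response elements, the CCAAT motif, GGGCGG of promoters rich in G and C, and the TATAAA motif. The share of all windows that holds them runs from 1.8% for TGACGTCA to 37.4% for CCAAT. The Tmem176a window had 59.7% G and C with 2 CpG dinucleotides and the Tmem176b window 60.3% with 4, against medians of 53.0% and 7 over all windows. A match of letters is a description and does not show that a factor binds.

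Libraries held 13.3 to 28.3 M counted reads. When principal components were taken over the 1000 genes of highest variance, 5 libraries stood apart from their groups. CD8 week 4 replicates 1 and 2 reached 59.9 and 64.6 on the first component (63.8% of the variance), and the other CD8 week 4 libraries at 23.9 to 29.0. CD4 week 3 replicate 2 lay at -5.6 on the second component (16.1%), against 14.7 to 29.8 in the other CD4 week 3 libraries and -40.6 to -14.0 in the CD4 week 1 libraries. CD8 week 1 replicate 3 lay at 33.7 on the first component, and the other CD8 week 1 libraries at 52.9 to 62.4. CD4 week 1 replicate 2 lay at -18.7 on the first component, and the other CD4 week 1 libraries at -50.6 to -42.4. Results for the pair are given with and without these libraries, as are the counts of called list members below that they moved by over 1.5 times. Shares over all genes given beside them are those of the fit of 20 libraries. Genes called in CD4 (edgeR adjusted p under 0.05) went from 2189 to 3650 without CD4 week 3 replicate 2 and to 1617 without CD4 week 1 replicate 2. Those called in CD8 went from 4454 to 4000 without CD8 week 4 replicates 1 and 2 and to 5351 without CD8 week 1 replicate 3.

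At week 4, CD8 T cells held about 20-fold more RNA of both genes than at week 1. Tmem176a stood at 91.8, 76.7, 135.0, 143.9 and 97.9 CPM (counts-per-million on library sizes scaled with TMM) in CD8 week 4 replicates 1 to 5, against 2.75, 3.22, 9.79, 6.90 and 4.59 CPM in CD8 week 1 replicates 1 to 5. Every CD8 week 4 library lay above every CD8 week 1 library, and the lowest of week 4 was 7.83-fold above the highest of week 1. The level averaged 109.1 ± 28.9 CPM in CD8 week 4 and 5.45 ± 2.91 CPM in CD8 week 1 libraries (SD, n = 5 each), and the fitted log2 fold change was 4.32 (SE 0.451, 19.9-fold).

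Tmem176b followed the same order. It stood at 110.1, 92.5, 149.8, 169.95 and 100.1 CPM across CD8 week 4 replicates 1 to 5, against 2.33, 3.46, 11.8, 6.54 and 6.10 CPM in CD8 week 1 replicates 1 to 5. No library of the groups overlapped, and the lowest CD8 week 4 library was 7.81-fold above the highest CD8 week 1 library. The level averaged 124.5 ± 33.6 CPM in CD8 week 4 and 6.05 ± 3.69 CPM in CD8 week 1 libraries (SD, n = 5 each), with a log2 fold change of 4.36 (SE 0.463, 20.6-fold). In bulk samples, more cells that express a gene and more RNA per cell cannot be told apart.

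Among all 13290 genes tested, Tmem176b had the log2 fold change of rank 17 from the top and Tmem176a that of rank 18 in CD8 cells. As background, 17.1% of the genes tested were called higher and 16.4% lower in CD8 week 4 (adjusted p under 0.05 by edgeR's quasi-likelihood test with the Benjamini-Hochberg method), from which nothing is read about the pair, since the choice used this comparison. The counts behind the levels were small at week 1: Tmem176a had 53 to 195 reads and Tmem176b 45 to 202 reads in a CD8 week 1 library, against 1362 to 3578 and 1643 to 4226 reads in a CD8 week 4 library.

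The difference in CD8 cells was as large without the libraries that stood apart. With CD8 week 4 replicates 1 and 2 left out, which was added with the values in view, the log2 fold change was 4.52 for Tmem176a and 4.53 for Tmem176b. Without CD8 week 1 replicate 3, which held the highest week 1 level of both genes, the values were 4.63 and 4.75. The numbers in the titles of the CD8 libraries fall into a lower range (replicates 1 to 3 of both groups) and a higher range (replicates 4 and 5). Within the lower range Tmem176a averaged 101.2 CPM in CD8 week 4 and 5.25 CPM in CD8 week 1, and Tmem176b 117.5 CPM in CD8 week 4 and 5.88 CPM in CD8 week 1. Within the higher range the averages were 120.9 CPM in CD8 week 4 and 5.74 CPM in CD8 week 1 for Tmem176a, and 135.0 CPM in CD8 week 4 and 6.32 CPM in CD8 week 1 for Tmem176b. The log2 fold changes were 4.26 and 4.32 in the lower range and 4.31 and 4.39 in the higher range for Tmem176a and Tmem176b in that order.

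**Figure D1:**
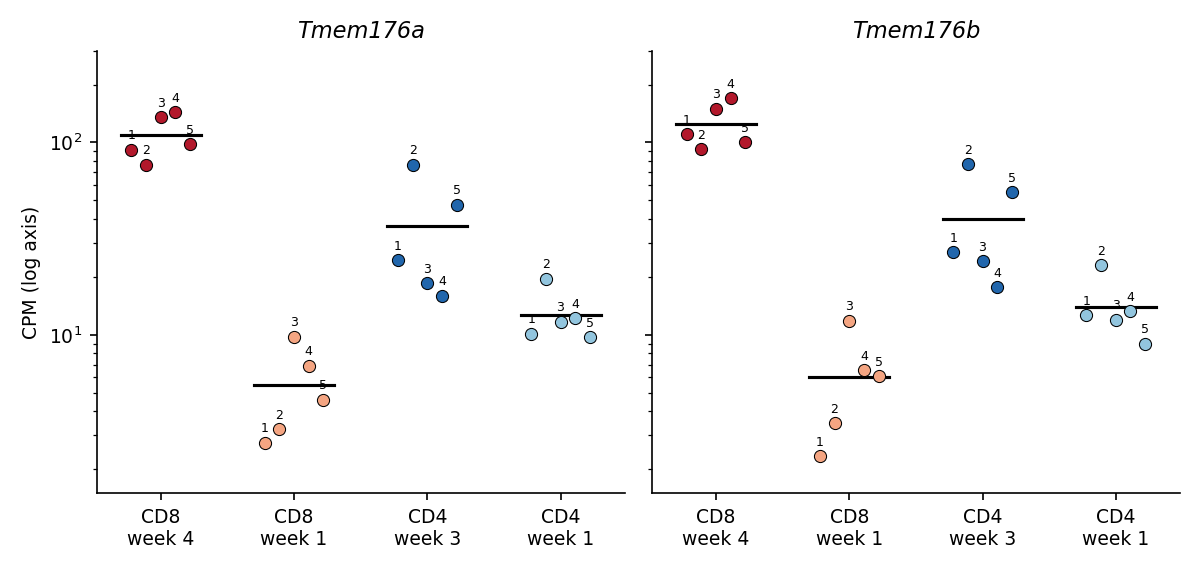
CPM of Tmem176a (left) and Tmem176b (right) in each library on a log axis, with points numbered by replicate and lines at the group means. CD8 week 4 libraries lie between 76.7 and 169.95 CPM and CD8 week 1 libraries between 2.33 and 11.8 CPM, while CD4 week 3 and CD4 week 1 libraries overlap.

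In CD4 T cells, which did not enter the choice of the pair, both genes rose as well, by less. Tmem176a stood at 24.3, 76.8, 18.6, 15.95 and 47.6 CPM in CD4 week 3 replicates 1 to 5, against 10.1, 19.6, 11.7, 12.2 and 9.71 CPM in CD4 week 1 replicates 1 to 5. The groups overlapped: 3 of 5 CD4 week 3 libraries lay above every CD4 week 1 library, and replicates 3 and 4 of week 3 lay below replicate 2 of week 1. The CD4 week 3 level averaged 36.65 ± 25.7 CPM and the CD4 week 1 level 12.7 ± 4.02 CPM (SD, n = 5 each). The log2 fold change was 1.53 (SE 0.401, 2.9-fold, adjusted p 0.0163 by edgeR's quasi-likelihood test over all genes tested).

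Tmem176b stood at 26.9, 77.0, 24.1, 17.6 and 55.0 CPM in CD4 week 3 replicates 1 to 5, against 12.6, 23, 12, 13.3 and 9.0 CPM in CD4 week 1 replicates 1 to 5. Here 4 of 5 CD4 week 3 libraries lay above every CD4 week 1 library, and replicate 4 of week 3 lay below replicate 2 of week 1. The level averaged 40.1 ± 25.1 CPM in CD4 week 3 and 13.98 ± 5.30 CPM in CD4 week 1 libraries (SD, n = 5 each), a log2 fold change of 1.52 (SE 0.411, 2.87-fold, adjusted p 0.0188 by the same test). As background, 7.67% of the genes tested were called higher and 8.8% lower in CD4 week 3.

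For Tmem176a the highest and the lowest library differed by 4.82-fold in CD4 week 3, against 2.02-fold in CD4 week 1, and by 1.88-fold in CD8 week 4, against 3.56-fold in CD8 week 1. For Tmem176b the widest range was that of CD8 week 1 (5.08-fold), against 4.37-fold in CD4 week 3. CD4 week 3 replicate 2, which stood apart from its group in the principal component analysis, held the highest level of both genes. Without it the log2 fold change was 1.07 for Tmem176a and 1.15 for Tmem176b (adjusted p 0.0306 and 0.0333, edgeR). Without CD4 week 1 replicate 2, which held the highest CD4 week 1 level of both genes, the values were 1.75 and 1.77 (adjusted p 0.017 and 0.0166, edgeR). In a fit of the CD4 libraries alone, which estimates the spread from these 10 libraries, Tmem176a kept its log2 fold change of 1.53 but missed the threshold (adjusted p 0.0514), and Tmem176b stayed below it at 0.0483.

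Cd8a, a coreceptor gene of CD8 T cells, was counted at 0.273 to 17.5 CPM in CD4 week 3 and 0.05 to 1.88 CPM in CD4 week 1 libraries. In CD8 week 4 libraries it stood at 645 to 1578 CPM. It was called higher in CD4 week 3 by edgeR (log2 fold change 2.71, adjusted p 0.0382) but not by limma-voom. Among CD4 week 3 libraries Cd8a was highest in replicate 1 (17.5 CPM, the others 0.273 to 3.30 CPM), and the pair in replicate 2. Cd8b1, the other CD8 coreceptor gene listed, did not rise (-0.07, adjusted p 0.93, edgeR). It averaged 5.34 ± 4.85 CPM in CD4 week 3 and 5.62 ± 1.93 CPM in CD4 week 1 libraries. The highest Cd8a value, in CD4 week 3 replicate 1, is 1.65% of the CD8 week 4 mean, and the same share of the CD8 week 4 level of Tmem176a is 1.80 CPM, against 24.3 CPM measured in that library. In CD4 week 3 replicate 2 Cd8a stood at 3.30 CPM, or 0.31% of the CD8 week 4 mean, against 76.8 CPM of Tmem176a. Such shares take any CD8 cells present to hold the mean levels of CD8 week 4. The part of CD8 cells in the levels of the pair was not tested.

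The order of the cell types differed between the culture times. After long-term culture the pair was higher in CD8 than in CD4 cells, with log2 fold changes of CD8 week 4 against CD4 week 3 of 1.57 (SE 0.396) for Tmem176a and 1.63 (SE 0.407) for Tmem176b. At week 1 it was lower in CD8 than in CD4 cells, with values of CD8 week 1 against CD4 week 1 of -1.21 (SE 0.414) for Tmem176a and -1.21 (SE 0.423) for Tmem176b. The change in CD8 minus the change in CD4 was 2.78 (SE 0.572) for Tmem176a and 2.84 (SE 0.586) for Tmem176b on the log2 scale. Among all genes, 0.248% passed the test of this difference with a positive and 0.406% with a negative value, from which nothing is read about the pair. These 3 contrasts hold CD8 libraries that chose the pair and are given without a test. CD8 week 4 cells had 25 days of expansion and CD4 week 3 cells 18 days. The titles of the CD4 libraries also form a range of numbers of their own. Cell type thus cannot be told apart from title range, nor, where the late groups enter, from culture time.

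From the highest to the lowest mean, both genes thus ran CD8 week 4, CD4 week 3, CD4 week 1, CD8 week 1. Neighbours in this order were not all separate. The highest CD4 week 3 library (76.81 CPM of Tmem176a) reached the lowest CD8 week 4 library (76.71 CPM), and the highest CD8 week 1 library (9.79 CPM) passed the lowest CD4 week 1 library (9.71 CPM). For Tmem176b the lowest CD8 week 4 library was 1.20-fold above the highest CD4 week 3 library, while the highest CD8 week 1 library (11.8 CPM) lay above 1 CD4 week 1 library (9.0 CPM).

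Per kilobase of merged exons, Tmem176b averaged 52.5 CPM per kb in CD8 week 4 and 2.55 CPM per kb in CD8 week 1, and 16.9 CPM per kb in CD4 week 3 and 5.89 CPM per kb in CD4 week 1. The CD8 week 4 level exceeded those of 92.7% of the genes tested, and the CD8 week 1 level those of 31.5%. Tmem176a averaged 28.6 CPM per kb in CD8 week 4 and 1.43 CPM per kb in CD8 week 1, above 84.9% and 24.1% of the genes tested. For CD4 cells the averages were 9.62 CPM per kb at week 3 and 3.32 CPM per kb at week 1, above 60.0% and 36.4% of the genes tested.

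The balance between the genes stayed nearly constant while their levels moved. There were 1.14 ± 0.0779 reads of Tmem176b per read of Tmem176a in CD8 week 4 and 1.08 ± 0.193 in CD8 week 1 libraries, and 1.13 ± 0.106 in CD4 week 3 and 1.09 ± 0.124 among CD4 week 1 libraries (SD, n = 5 each). Over single libraries the ratio ran from 0.849 to 1.33, with both ends in CD8 week 1 libraries, where the counts were smallest. In CD4 cells the mean log2 ratio per kb was 0.859 ± 0.134 at week 3 and 0.804 ± 0.166 at week 1, a difference of 0.056 that a two-sided exact permutation test did not separate from 0 (p = 0.548, the smallest possible being 0.00794). In CD8 cells it was 0.875 ± 0.101 at week 4 and 0.779 ± 0.258 at week 1, not tested. Which gene is more abundant per length depends on the gene model. With the merged exons of the deposited table (2371 bp for Tmem176b, 3810 bp for Tmem176a, which includes retained introns) the CD8 week 4 ratio per kb averaged 1.84, and with the first well-supported coding transcript of each gene (1648 and 1540 bp) it averaged 1.07.

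Within groups, the libraries that were high in one gene were high in the other. Deviations of log2 CPM from the group mean, which the choice of the pair did not use, had a Pearson r of 0.969 and a Spearman rho of 0.967 over the 20 libraries (p = 1e-05 for each, the smallest that 100000 permutations within groups can give). Without the 2 libraries farthest from the median of Tmem176a, CD8 week 1 replicate 3 and CD4 week 3 replicate 2, r was 0.954 over 18 libraries. It was 0.963 over the CD8 libraries alone and 0.979 over the CD4 libraries alone. The within-group SD was 0.667 for Tmem176a and 0.698 for Tmem176b in log2 CPM, above those of 87.4% and 88.7% of the genes tested, whose median was 0.256. Values of one library share its depth and scaling.

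**Figure D2:**
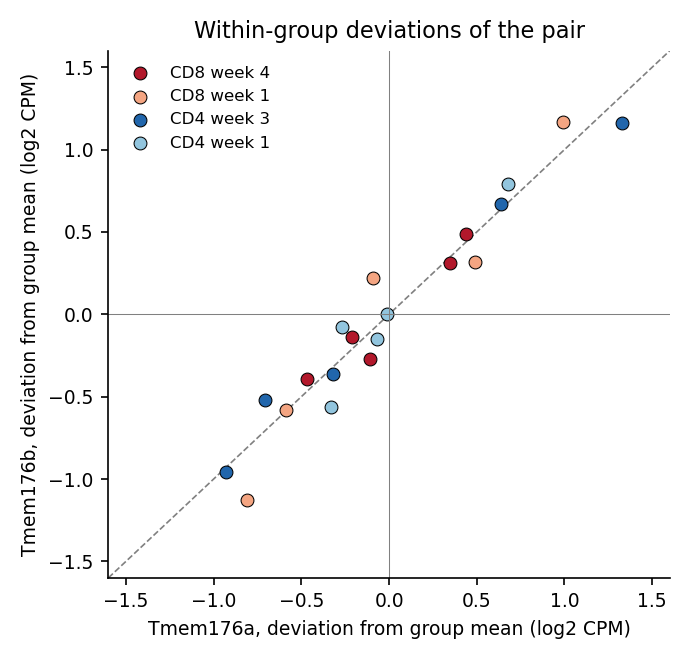
Deviation of each library's log2 CPM from its group mean for Tmem176b (vertical) against Tmem176a (horizontal), with the 4 groups in colour and equality dashed. The 20 points lie along the diagonal (Pearson r 0.969), with CD4 week 3 replicate 2 and CD8 week 1 replicate 3 at the upper right.

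No other gene tracked either one as closely as they tracked each other. Over the log2 CPM of the 20 libraries, the r of Tmem176a with Tmem176b was 0.996, the highest for both among 13289 other genes. The named protein-coding genes next in likeness were the same 5 for each gene. For Tmem176a they were Man1a, a mannosidase of N-glycan processing (r 0.897), Smad3, a transcription factor of TGF-beta signalling (0.878), Gimap3 (0.870), Laptm5, a lysosomal membrane protein of blood cells (0.865), and Irak2, a kinase of Toll-like and IL-1 receptor signalling (0.862). For Tmem176b the r values were 0.888 (Irak2), 0.887 (Laptm5), 0.883 (Man1a), 0.879 (Smad3) and 0.874 (Gimap3). The values describe these libraries, in which group differences drive most of each r.

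These genes followed the order of the pair with far smaller changes. Irak2 averaged 55.5 ± 7.78 CPM in CD8 week 4 and 28.6 ± 3.58 CPM in CD8 week 1, and 44.8 ± 3.62 CPM in CD4 week 3 and 33.5 ± 6.23 CPM in CD4 week 1 libraries (SD, n = 5 each). It rose in both cell types (log2 fold change 0.96 in CD8, adjusted p 5.76e-05, and 0.42 in CD4, adjusted p 0.0285, edgeR). Smad3 rose in CD8 (0.95), as did Gimap3 (1.03), Laptm5 (0.49) and Man1a (0.33), each with an edgeR adjusted p of 0.00107 or less. In CD4 cells the 4 stood at 0.16, 0.25, 0.18 and 0.01, and none passed the test (adjusted p 0.117 to 0.908). All of these genes were picked by likeness to the pair over the same 20 libraries, which favours a rise in CD8 week 4. Their p-values are thus no separate evidence of such a rise.

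**Figure D3:**
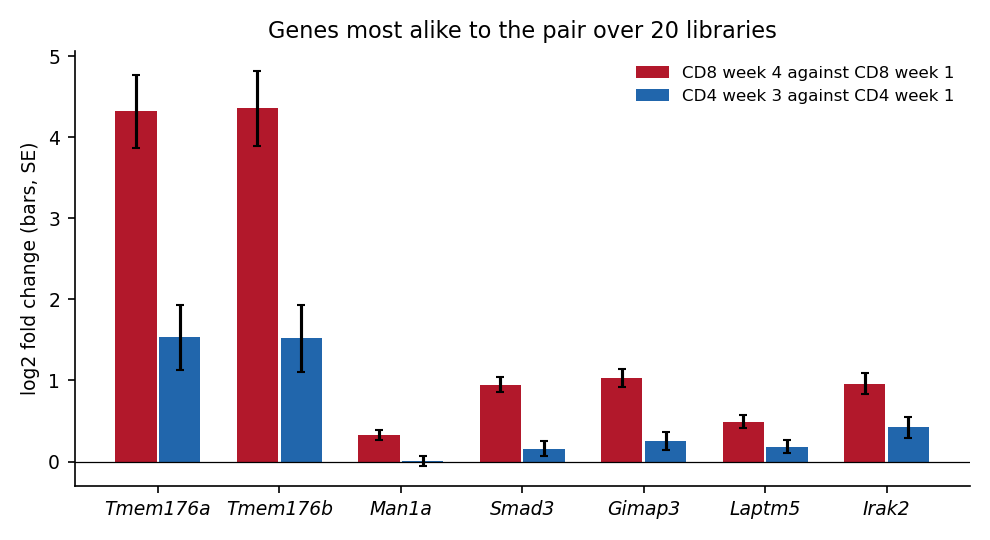
Log2 fold change with SE (fit of 20 libraries) of the pair and of the 5 named protein-coding genes most alike to it, for CD8 week 4 against CD8 week 1 and CD4 week 3 against CD4 week 1. The pair stands at 4.32 and 4.36 in CD8 cells, and the genes most alike to it at 0.33 to 1.03.

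In their deviations within groups, the genes nearest to Tmem176a were Hectd2, a ubiquitin ligase (r 0.891), Acsl4, an acyl-CoA synthetase (0.840), and Gpr55, a lipid receptor (0.836). The genes nearest to Tmem176b were Acbd3, a Golgi protein (0.877), the small GTPase gene Rap1b (0.855) and Hectd2 (0.845). None of the 5 rose with the pair between times. Hectd2 fell in both cell types, to 4.28 ± 0.756 CPM in CD8 week 4, against 7.87 ± 2.63 CPM in CD8 week 1 (log2 fold change -0.88, adjusted p 0.00844), and to 5.87 ± 2.16 CPM in CD4 week 3, against 9.55 ± 1.27 CPM in CD4 week 1 libraries (-0.70, adjusted p 0.0445, edgeR). Acsl4, Gpr55, Acbd3 and Rap1b did not pass the test in either comparison (adjusted p 0.324 to 0.936). Gpr55 stood at 19.96 CPM in CD4 week 3 replicate 2, the library highest in the pair, against 2.96 to 6.76 CPM in the other CD4 week 3 libraries.

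In CD8 cells the genes that flank the pair changed less than it or were silent or nearly so, and in CD4 cells the values of Igf2bp3 (-2.01) and Gpnmb (-1.99, adjusted p 0.122, edgeR) were farther from 0 than those of the pair, in the other direction. Of the 29 protein-coding genes with any base within 500 kb, 21 were tested, and 7 rose and 1 fell in CD8 week 4 (5 and 1 without CD8 week 4 replicates 1 and 2), against the background of 17.1% and 16.4%. Their median log2 fold change was 0.13, against 0.03 over all genes tested. In CD4 week 3, 1 rose and 2 fell, against the background of 7.67% and 8.8%, with a median of -0.02 against 0.01. The counts were 2 and 2 without CD4 week 3 replicate 2, and 1 and 0 without CD4 week 1 replicate 2. On the side of Tmem176a, the nearest gene Gm44764, a minus-strand gene whose 3' end lies 588 bp away, had no count in any library. The nearest protein-coding gene Aoc1, a diamine oxidase gene 25825 bp away, had none either. The long noncoding RNA gene Gm7932, 13258 bp away and overlapping the span of Gm44764, had 59 counts in all, too few to be tested. It averaged 0.368 ± 0.144 CPM in CD8 week 4 and 0.0993 ± 0.115 CPM in CD8 week 1 (SD, n = 5 each), and was counted in 1 of 5 CD4 week 3 libraries and in no CD4 week 1 library. On the side of Tmem176b lie the Gimap genes, which encode GTPases of lymphocytes, the nearest being Gimap3 at 62967 bp. Gimap3 (log2 fold change 1.03, adjusted p 1.07e-05), Gimap8 (0.65, 0.000533), Gimap5 (0.47, 0.00228), Gimap9 (0.48, 0.0041), Gimap4 (0.50, 0.0136) and Gimap6 (0.51, 0.0233) rose in CD8 week 4 (edgeR), as did Gm28053 (0.84, 0.0144), which overlaps other genes of the cluster. Of the 8 Gimap genes, 6 rose with all libraries and 5 without CD8 week 4 replicates 1 and 2, against 17.1% of all genes.

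Gimap1 (0.01) and Gimap7 (0.30) did not pass the test in CD8. In CD4 week 3, where the pair rose by 1.53 and 1.52, 0 of the 8 Gimap genes passed it (log2 fold change -0.59 to 0.25, adjusted p 0.115 to 0.991, edgeR), and likewise 0 by DESeq2 and limma-voom, with 1 higher and 2 lower at an unadjusted p under 0.05. Of all genes, 7.67% were called higher and 8.8% lower there by edgeR. At such shares a count of 0 among 8 is not read as a result about the Gimap genes. Farther off, Igf2bp3, an RNA-binding protein gene, fell in both (-2.79, adjusted p 0.00451, in CD8 and -2.01, adjusted p 0.0472, in CD4). Among CD4 libraries, the zinc finger gene Zfp467 fell at week 3 (-0.97, adjusted p 0.022) and Sspo rose (1.35, adjusted p 0.0227). The other 11 tested neighbours, which are Krba1, Lrrc61, Repin1, Zfp775, AI854703, Gimap7, Gimap1, Gpnmb, Malsu1, Tra2a and Ccdc126, passed in neither comparison.

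**Figure D4:**
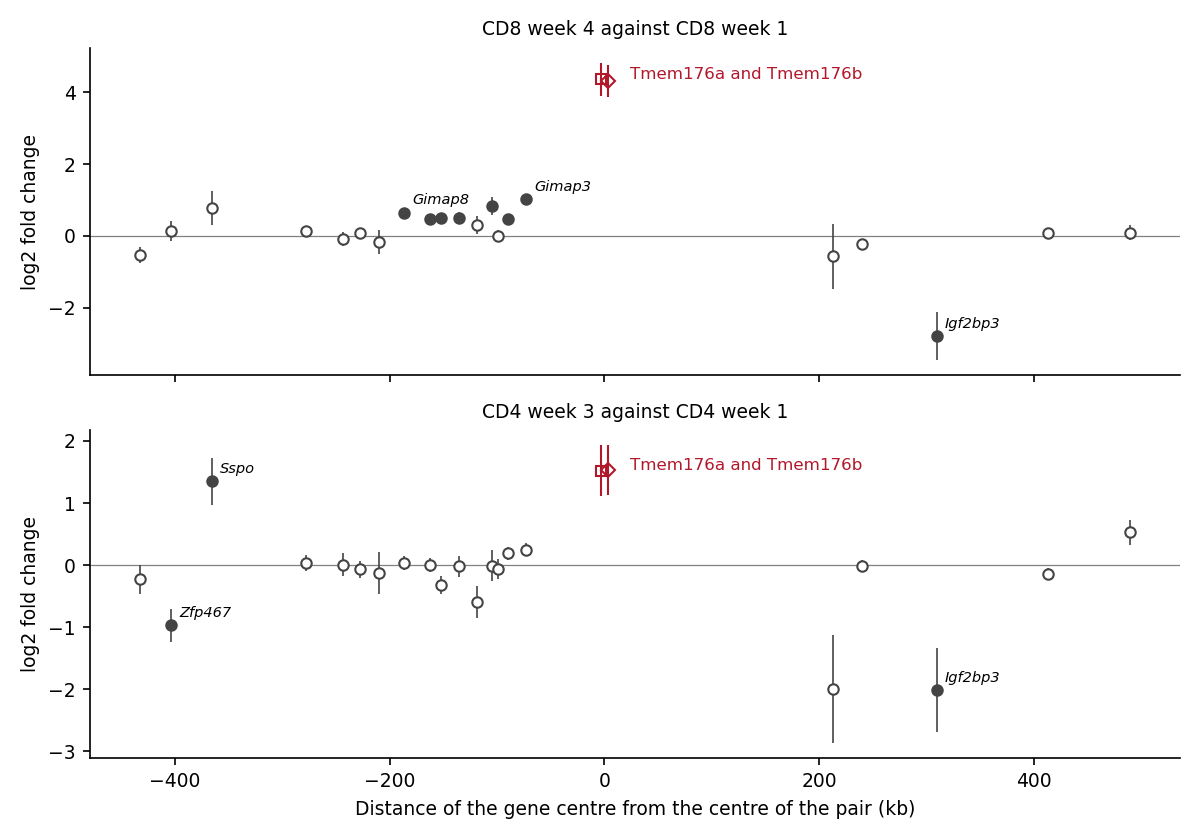
Log2 fold change with SE of tested protein-coding genes against the distance of their centre from the centre of the pair in kb, for CD8 (top) and CD4 (bottom). Filled points passed an adjusted p of 0.05, and the pair, drawn in red without a call, stands at 4.32 and 4.36 in CD8 and 1.53 and 1.52 in CD4, above every neighbour in each panel.

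Several genes of type 17 cells, in which the pair is known, were at or near 0, and others were not. Of the 15 listed type 17 genes, Il23r, Il22 and Il1r1 had no count in any library, and Il17a and Ccr6 averaged under 0.03 CPM in every group. The receptor gene Ltb4r1 averaged 19.7 ± 23.2 CPM in CD8 week 4 and 14.3 ± 8.66 CPM in CD8 week 1 (SD, n = 5 each) and passed in neither cell type. Of the 7 tested members, 2 rose in CD8 week 4, against 17.1% of all genes, and 3 fell in CD4 week 3, against 8.8% (medians -0.03 and -0.11). The nuclear receptor gene Rora averaged 32.0 ± 13.7 CPM in CD8 week 4 and 13.5 ± 6.67 CPM in CD8 week 1 (1.24, adjusted p 0.00613) and did not pass in CD4 (0.68, 0.142). Maf, a transcription factor of helper and memory cells, rose in CD8 (1.76, 0.0231) and fell in CD4 (-1.71, 0.0356), where Batf (-0.69, 0.0118) and Irf4 (-1.70, 0.0145), factors of T cell activation, fell too (edgeR adjusted p). Without CD8 week 4 replicates 1 and 2, 1 of the 7 rose and 2 fell in CD8, and without CD8 week 1 replicate 3, 2 rose and 1 fell.

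Several defining markers of macrophages and dendritic cells had no count, while other listed genes of these cells were counted. Lyz2, Cebpa, S100a9 and Clec7a of 19 macrophage and monocyte genes, and Clec9a, Cd209a, Siglech and Clec10a of 16 dendritic cell genes, had no count in any library, while Csf1r and Flt3 averaged under 0.03 CPM in every group. The summed macrophage and monocyte list ran from 144 to 216 CPM in CD8 week 4 and 157 to 192 CPM in CD8 week 1, and from 164 to 225 CPM in CD4 week 3 and 117 to 287 CPM in CD4 week 1 libraries. Ctss and Cst3, protease and protease inhibitor genes that T cells also express, made up 81.1% of it in CD8 week 4 and 83.2% in CD8 week 1, and 96.4% in CD4 week 3 and 93.35% in CD4 week 1. Ms4a6d (16.8 CPM in CD8 week 4 and 13.1 CPM in CD8 week 1) and Cd68 (11.3 CPM in CD8 week 4 and 12.2 CPM in CD8 week 1) followed in CD8 cells and passed the test in neither cell type. The summed dendritic cell list was lower at the late time, at 29.5 to 127 CPM in CD8 week 4 and 132 to 234 CPM in CD8 week 1, and at 3.46 to 23.8 CPM in CD4 week 3 and 14.7 to 111 CPM in CD4 week 1 libraries. The leading gene was Irf8 (44.5% of the list in CD8 week 4 and 70.9% in CD8 week 1, and 47.9% in CD4 week 3 and 50.6% in CD4 week 1), which activated T cells express and which fell in both (-2.06, adjusted p 0.00204, in CD8 and -2.43, adjusted p 0.00288, in CD4), while H2-Ab1 and Itgax, an integrin gene at 17.3 CPM in CD8 week 4 and 10.5 CPM in CD8 week 1, passed in neither. Their part in the levels of the pair was not tested. Further falls in CD4 week 3 were those of Cd74 (-4.21, 0.0169), Ciita (-2.31, 0.0398) and, of the macrophage list, Mpeg1 (-5.88, 0.00678). Mpeg1 ran from 0.0417 to 23.7 CPM in CD4 week 1 and overlapped with CD4 week 3, and limma-voom did not call it. Of the 7 tested dendritic cell genes, 3 fell in CD4 week 3, against 8.8% of all genes. By limma-voom 1 fell, and 1 fell by edgeR without CD4 week 1 replicate 2. The summed B cell list of 8 genes was mostly Cd79b, at 1.18 to 9.01 CPM in CD8 week 4 and 9.71 to 13.4 CPM in CD8 week 1, and at 0.182 to 1.36 CPM in CD4 week 3 and 0.726 to 1.53 CPM in CD4 week 1 libraries, with Cd22 under 0.5 CPM in every group.

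Among genes of gamma-delta T cells, some of which express the pair in mice, a gamma chain gene was higher at the late time with the pair. Trdc, the delta chain constant gene, averaged 10.0 ± 4.36 CPM in CD8 week 4 and 6.94 ± 1.32 CPM in CD8 week 1, and 7.05 ± 2.29 CPM in CD4 week 3 and 4.31 ± 0.815 CPM in CD4 week 1 libraries (SD, n = 5 each), with no call in either comparison (adjusted p 0.145 and 0.0853). Sox13, Blk and Zbtb16, factors of innate-like T cells, averaged under 0.1 CPM in every group. The whole list of 8 genes summed to 63.5 to 120 CPM in CD8 week 4 and 56.1 to 79.0 CPM in CD8 week 1, and to 45.7 to 90.5 CPM in CD4 week 3 and 9.17 to 38.1 CPM in CD4 week 1 libraries. Tcrg-C1, a gamma chain constant gene, rose in both (1.73, adjusted p 0.00653, in CD8 and 1.84, adjusted p 0.0108, in CD4), and Tcrg-C2 in neither. In CD4 the sum of this list did not overlap between the times. Tcrg-C1 made up 81.1% of the sum in CD4 week 3 and 68.8% in CD4 week 1. Trdc and Tcrg-C2 overlapped between these groups. Of the 4 tested genes of the list, 1 rose in CD4 week 3, against 7.67% of all genes, and 2 rose without CD4 week 3 replicate 2. Alpha-beta T cells can transcribe gamma chain genes, and the part of gamma-delta cells in the levels of the pair was not tested.

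The list of 9 NK and innate lymphoid cell genes summed to 214 to 372 CPM in CD8 week 4 and 199 to 362 CPM in CD8 week 1, mostly Eomes, which memory CD8 T cells express. It summed to 3.13 to 50.5 CPM in CD4 week 3 and 0.5 to 23.1 CPM in CD4 week 1 libraries, and Kit, a growth factor receptor gene, rose there (4.23, adjusted p 0.0057, edgeR). The labelled cell types carried their coreceptors: Cd8a stood at 645 to 1578 CPM in CD8 week 4 and 747 to 1311 CPM in CD8 week 1, and Cd4 at 520 to 880 CPM in CD4 week 3 and 597 to 903 CPM in CD4 week 1 libraries. Of the 12 T cell identity genes, 1 rose and 2 fell in CD8 week 4, against 17.1% and 16.4% of all genes, and 3 rose without CD8 week 1 replicate 3. In CD4 cells 1, Cd8a, rose (0 by limma-voom) and 4 fell, against 7.67% and 8.8%. The falls included Trbc1 in both cell types (-0.25 and -0.44) and Trac (-0.36) and Trbc2 (-0.43) in CD4.

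**Figure D5:**
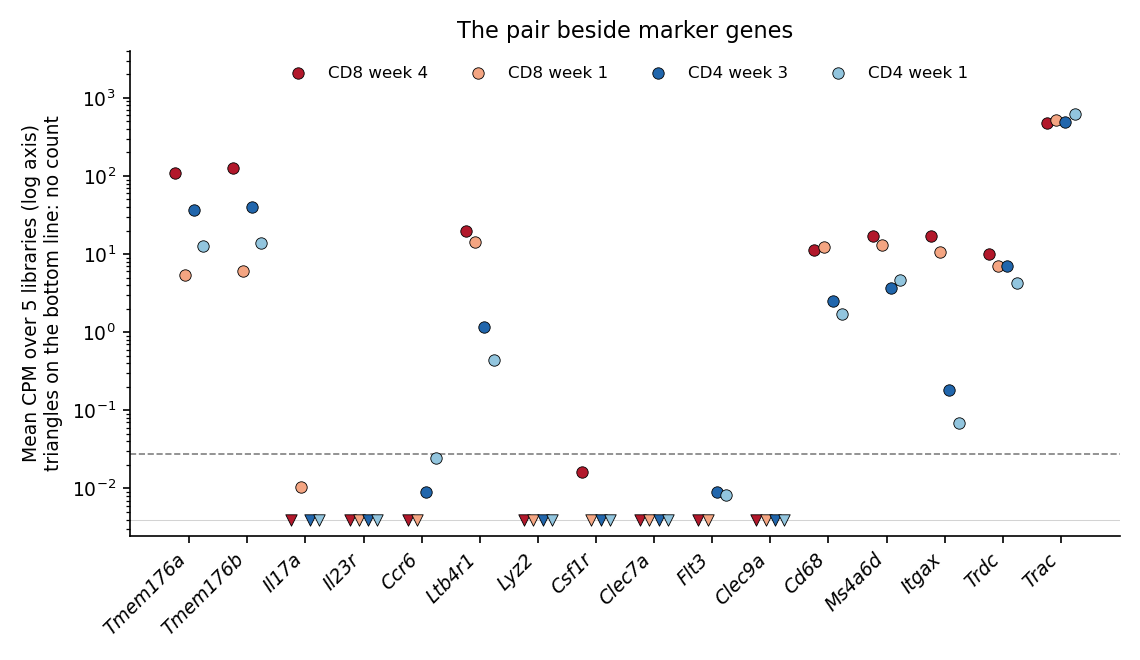
Mean CPM over 5 libraries per group, on a log axis, of the pair and of marker genes of type 17 cells (Il17a, Il23r, Ccr6, Ltb4r1), myeloid cells (Lyz2, Csf1r, Clec7a, Flt3, Clec9a, Cd68, Ms4a6d, Itgax), gamma-delta T cells (Trdc) and alpha-beta T cells (Trac), chosen after their values were seen. Triangles on the bottom line mark groups with no count, the dashed line is the mean of the 4 floors of 3 counts over a group, and Il17a, Il23r, Ccr6, Lyz2, Csf1r, Clec7a, Flt3 and Clec9a lie at or below 0.0247 CPM, while Ltb4r1, Cd68, Ms4a6d and Itgax reach 11.3 to 19.7 CPM in CD8 week 4.

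Among genes of related function, Nlrp3 and Naip5 of the inflammasome list and Mcoln2 of the endolysosomal list rose in both cell types. Casp4 of the inflammasome list fell in both. As background, 668 of the 13290 genes tested were called higher in both. These were 29.45% of the genes called higher in CD8 and 65.5% of those called higher in CD4. Nlrp3, which encodes the sensor that TMEM176B is reported to restrain, stood at 5.89, 5.35, 12.8, 12.6 and 12.5 CPM across CD8 week 4 replicates 1 to 5, against 1.14, 1.37, 5.98, 1.73 and 1.66 CPM in CD8 week 1 replicates 1 to 5. It stood at 9.47, 8.35, 6.81, 4.83 and 5.45 CPM in CD4 week 3 replicates 1 to 5, against 1.49, 0.235, 1.80, 1.17 and 0.333 CPM in CD4 week 1 replicates 1 to 5. The groups did not overlap in CD4 and overlapped by CD8 week 1 replicate 3 in CD8, which was also the CD8 week 1 library highest in the pair, while CD4 week 1 replicate 2, the highest in the pair among CD4 week 1 libraries, was the lowest in Nlrp3. The log2 fold change was 2.05 in CD8 (adjusted p 0.00473) and 2.79 in CD4 (adjusted p 0.0028, edgeR).

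Of 11 tested inflammasome genes, 3 rose and 1 fell in CD8 week 4, against 17.1% and 16.4% of all genes, and 2 rose and 2 fell in CD4 week 3, against 7.67% and 8.8%, with medians of 0.23 and -0.12. In CD8 cells 2 rose and 1 fell when CD8 week 4 replicates 1 and 2 were left out, 3 rose and 0 fell without CD8 week 1 replicate 3, and in CD4 cells 2 rose and 1 fell without CD4 week 1 replicate 2. Naip5, a sensor of bacterial flagellin, rose in both (1.87, adjusted p 0.000238, and 1.72, adjusted p 0.0027), and the sensor gene Nlrp1b in CD8 (0.94, 0.0211). Casp4, which encodes caspase-11, fell in both (-0.93, 0.0363, and -1.04, 0.0333), and the adaptor gene Pycard in CD4 (-0.53, 0.00191). Casp1 and Gsdmd, the effector protease and pore former, passed in neither (adjusted p 0.104 to 0.442), and Il1b had no count in any library.

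The MS4A genes, the wider family, changed less. Of 17 listed, 7 were tested, and 3 rose and 1 fell in CD8 week 4, against 17.1% and 16.4% of all genes. Ms4a6c (1.18, adjusted p 0.00153), Ms4a6b (0.52, 0.00764) and Ms4a4b (0.35, 0.0217), which T cells express, were higher, and Ms4a4d, at 0.260 ± 0.123 CPM in CD8 week 4 and 1.18 ± 0.194 CPM in CD8 week 1, was lower (-2.13, 0.00127, edgeR). In CD4 week 3, 0 of the 7 passed the edgeR test, against 7.67% of all genes called higher and 8.8% lower. At such shares a count of 0 among 7 is not read as a result about the family. For CD4 week 3, 1 was lower by DESeq2, 0 passed by limma-voom and 2 were lower at an unadjusted p under 0.05, while 2 fell without CD4 week 3 replicate 2. The difference farthest from 0 there was that of Ms4a4c, at -1.50 (adjusted p 0.0562), which was named after its value was seen.

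Of 16 tested endolysosomal channel and exchanger genes, 7 rose and 0 fell in CD8 week 4 (edgeR, and the same counts by DESeq2, by limma-voom and at an unadjusted p under 0.05), against 17.1% and 16.4% of all genes, and 6 rose without CD8 week 4 replicates 1 and 2. The median log2 fold change was 0.27, against 0.03 over all genes tested. The 7 were the calcium channel genes Mcoln1 (0.36, adjusted p 0.00866) and Mcoln2 (0.57, 0.0275), the pore channel genes Tpcn1 (0.47, 0.00285) and Tpcn2 (0.30, 0.0179), Tmem63a (0.66, 0.00013), the chloride exchanger gene Clcn7 (0.45, 0.015) and the sodium-proton exchanger gene Slc9a9 (0.67, 0.017), all by less than the pair (edgeR). Mcoln2 averaged 28.7 ± 4.66 CPM in CD4 week 3 and 11.9 ± 3.71 CPM in CD4 week 1 libraries (SD, n = 5 each) and was the 1 member to pass there (1.27, adjusted p 0.000666), against 7.67% of all genes, while 3 members passed without CD4 week 3 replicate 2. Tpcn2, Clcn7 and Slc9a9 were named after their values were seen.

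TGF-beta is a cytokine that type 17 differentiation uses, and Smad3 is among the genes most alike to the pair. Of 12 genes of its receptors and response, all tested, 3 rose and 1 fell in CD8 week 4 (2 and 1 without CD8 week 4 replicates 1 and 2), against 17.1% and 16.4% of all genes. Smad3 (165 ± 11.03 CPM in CD8 week 4 and 85.5 ± 11.3 CPM in CD8 week 1, SD, n = 5 each), Tgfbr2 (0.47, adjusted p 0.0157) and Smad4 (0.32, 0.00778) rose, and Itgae, which encodes the integrin chain CD103 and is induced by TGF-beta, fell (-3.90, 0.000439). At CD4 week 3, 1 of the 12 rose, the inhibitor gene Ldlrad4 (1.35, 0.0141, edgeR), against 7.67% of all genes. Without CD4 week 3 replicate 2, 3 of the 12 rose.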

How the data were processed

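RNA-seq of polyadenylated RNA from 20 libraries of sorted mouse T cells was analysed, with groups taken from the labels' cell type and time fields. The authors deposited raw read counts of each gene, made with STAR on mm10 (per the submitters' processing notes) and featureCounts 1.6.3 (per the file headers: exon reads by gene, reversely stranded, GENCODE M12 on GRCm38). Under these options ambiguous reads (multi-mapping, or shared by genes of 1 strand) were not counted, and since the pair lies on opposite strands, reads from its shared span were told apart by strand. Merged exon length per gene is another column of the deposited table. Totals were 13.3 to 28.3 M counts, and replicate numbers follow accession order and were not used to pair libraries. The 40 replicate pairs had a chi-square per degree of freedom of 5.9 to 141, so none was a duplicate.

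Tests on the counts used edgeR 4.0.16 under R 4.3.3 (filterByExpr, TMM, 1 quasi-likelihood fit with a mean for each of 4 groups, F tests, Benjamini-Hochberg over 13290 genes, threshold 0.05). The SE is the log2 fold change over the square root of F, and log2 CPM has a prior count of 2. Gene ratios, with 0.5 counts added, and deviations were tested by permutation (scipy 1.17.1 under Python 3.11.15, with numpy 2.4.6 and pandas 2.3.3). Figures used matplotlib 3.10.9. The fit was tested on simulated data with known changes. Floors of 3 counts cover counting error only.

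The pair, the gene lists and the tests were chosen with earlier results of these data known. Named genes are the pair, for each of it the 5 named protein-coding genes of highest r in level and the 3 of highest r in deviations, tested protein-coding neighbours within 500 kb, up to 3 members per direction and list with the smallest adjusted p under 0.05, and the 2 most abundant markers per cell type. Other genes named are defining markers, effectors or silent neighbours, chosen after their values were seen. Alternatives were other size factors, library totals, other filters (none, or 5 CPM in 5 libraries), DESeq2 1.42.0, limma-voom 3.58.1, 1 cell type or title range alone, each library left out, and other pseudocounts. Protein sequences were not used here. Some genes of the lists are not reported here.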

Additional observations from a re-analysis of the deposited data

Results flagged for a closer look

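Of 52 sets of 5 libraries (the pair, its ratio and the genes most alike to it, in each group), 5 held a library far from the other 4, and chance gives this in about 5% of such sets. Tmem176a stood at 19.6 CPM in CD4 week 1 replicate 2, against 9.71 to 12.2 CPM in the other CD4 week 1 libraries. In CD4 week 3 replicate 2, Hectd2 stood at 9.59 CPM, against 4.28 to 5.58 CPM, and Gpr55 at 19.96 CPM, against 2.96 to 6.76 CPM, in the other CD4 week 3 libraries. Acsl4 stood at 204 CPM in CD8 week 4 replicate 4, against 157 to 167 CPM in the others, and Rap1b at 539 CPM in CD8 week 1 replicate 3, against 413 to 435 CPM.

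The change in CD8 minus the change in CD4 passed the test for 7 named genes outside the pair (edgeR's quasi-likelihood test, adjusted p under 0.05). Over all genes, 0.248% passed with a positive and 0.406% with a negative difference. Many of the named genes were picked by their values in these same libraries, so their count is not compared with those shares. The late times also differ, with 25 days of expansion in CD8 and 18 days in CD4. The difference was 0.79 on the log2 scale for Smad3 (0.95 in CD8 and 0.16 in CD4, adjusted p 0.00615) and 0.78 for Gimap3 (1.03 and 0.25, adjusted p 0.0335). It was 0.59 for Tmem63a (0.66 and 0.07, adjusted p 0.0496), 0.38 for Lck (0.17 and -0.21, adjusted p 0.0409) and 3.47 for Maf (1.76 and -1.71, adjusted p 0.0458). Maf was uneven within groups. It reached 8.14 CPM in CD8 week 4 replicate 5 (group median 2.49) and 20.1 CPM in CD4 week 1 replicate 2 (group median 5.35). The difference was -5.28 for Itgae (-3.90 and 1.38, adjusted p 0.00998). For Cd4 it was -5.42 (adjusted p 0.0335), but Cd4 had no count in any CD8 week 4 library and averaged 0.269 CPM in CD8 week 1, which makes it at least 10.2-fold lower in CD8 week 4 by the floor of 3 counts over the group, and its fitted values depend on the prior count. The same difference for the pair, 2.78 and 2.84, was not tested, since CD8 libraries chose it.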

How the results depend on the processing

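The rise of Tmem176a and Tmem176b in CD4 cells kept its direction under all alternatives and its call under all but 1. Tmem176a missed the threshold in the fit of CD4 libraries alone (log2 fold change 1.53, adjusted p 0.0514, against 0.00161 to 0.0421 under the others). For Tmem176b the adjusted p came close to the threshold with 1 library left out. It was 0.0496 without CD4 week 3 replicate 5 and 0.0495 without CD4 week 1 replicate 3 (edgeR). Leaving out 1 library gave 1.07 to 1.75 for Tmem176a and 1.15 to 1.77 for Tmem176b. In CD8 cells the values were 4.15 to 4.63 and 4.15 to 4.75, and the other settings gave 4.26 to 4.53 over both genes. The difference in mean log2 ratio of the genes, CD4 week 3 minus CD4 week 1, ran from -0.001 (p = 0.984, exact permutation test, without CD4 week 1 replicate 5) to 0.105. The r of their deviations ran from 0.963 to 0.979. Of all genes, 4454 were called in CD8 and 2189 in CD4. The CD8 count was 517 in the lower title range alone, 6386 in the higher and 3620 to 5351 with 1 library left out. The CD4 count was 1150 in CD4 libraries alone, 3650 without CD4 week 3 replicate 2, and 1090 to 3650 with 1 library left out (1090 without CD4 week 3 replicate 4, 1112 without 3 and 1302 without 5, and 1236 without CD4 week 1 replicate 3). The cause was not tested. Without CD4 week 3 replicate 2, 2 neighbours, 3 endolysosomal, 3 TGF-beta and 2 gamma-delta genes were higher and 2 MS4A genes lower. At week 1 the depth gives 45 to 202 reads per gene in a CD8 library, which limits the ratio. No paired analysis was made, because the labels name no animal or culture for a library and replicate numbers follow accession order. Whether libraries of the same replicate number share an origin was not tested.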
